A study of Homo sapiens with 18 samples.

Results

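The transcripts of the ABC transporter family were followed in A549 cells given sodium propionate (SP). A member was any protein-coding gene of the GENCODE v44 annotation, listed in both count tables, whose symbol reads ABCA, ABCB, ABCC, ABCD or ABCG followed by digits alone, and 41 of the 61541 genes listed met this rule, which uses no measured value. A549 is an established line from a human lung adenocarcinoma, a non-small cell lung cancer. Its cells were used here as wild-type, in that no engineered change is described for these samples. They grew in high-glucose DMEM with 10% fetal bovine serum. Bulk RNA was sequenced from 18 libraries, 3 per group, in 2 experiments that were counted in separate tables. In the experiment of hours, cells given 5 mM SP for 3 h (SP_3H) or 24 h (SP_24H) were set against untreated cells collected at 24 h (Control_24H), and in the experiment of days, cells given 5 mM SP for 3 days (SP_3D) or 12 days (SP_12D) were set against untreated cells collected at day 3 (Control_3D). Both SP groups of an experiment share its 1 control group, and no untreated cells of 3 h or of 12 days were analysed here, so that for SP_3H and SP_12D the treatment and the time of collection cannot be told apart. The labels do not state whether the 3 libraries of a group came from separate cultures, so p-values measure the spread between these libraries, which may be technical.

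ABC transporters are membrane proteins that hydrolyse ATP at paired nucleotide-binding domains to move a substrate across a bilayer. One set of them, best known from tumour cells that resist chemotherapy, exports drugs and their glutathione or glucuronide conjugates across the plasma membrane; another moves sterols and phospholipids out of cells or into lamellar bodies, which in the lung alveolus hold surfactant. The remaining members carry fatty acyl groups or peptides into peroxisomes and lysosomes, serve haem and iron-sulphur metabolism in mitochondria, or regulate ion channels. In A549 cells the conjugate exporters are prominent, and the line is known for a mutant KEAP1 and a constantly active NRF2, a transcription factor that acts on antioxidant response elements.

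The members fell into 9 drug exporters (ABCB1, ABCC1, ABCC2, ABCC3, ABCC4, ABCC5, ABCC10, ABCC11 and ABCG2), 18 lipid and sterol transporters (ABCA1 to ABCA10, ABCA12, ABCA13, ABCB4, ABCB11, ABCG1, ABCG4, ABCG5 and ABCG8), 5 transporters of peroxisomes and lysosomes (ABCD2, ABCD3, ABCD4 and ABCB9 among them), 4 of mitochondria (ABCB6, ABCB8 and ABCB10 among them) and 5 others (ABCB5, ABCC6, ABCC8, ABCC9 and ABCC12). These roles are textbook assignments and some members have more than 1.

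Gene positions given below are those of GENCODE v44 on GRCh38. Promoter windows are shown for 4 members that reached the strictest threshold used here in the experiment of days, ABCG4 and ABCB1 in the upward and ABCC2 and ABCA12 in the downward direction. Each runs from 250 bases before to 50 bases after a transcription start in the RefSeq annotation of GRCh38.p14, 5′ to 3′ on the gene's strand, and where a gene had several starts the window with the most CpG dinucleotides was taken. Capitals mark matches, on either strand, to the GC box, spelled GGGCGG, to the CCAAT box, spelled by its name, to the TATA box, for which the letters TATAAA were searched, or to the core of an antioxidant response element, TGACNNNGC, none of which overlapped another.
ABCG4, chr11:119149339-119149638, plus strand: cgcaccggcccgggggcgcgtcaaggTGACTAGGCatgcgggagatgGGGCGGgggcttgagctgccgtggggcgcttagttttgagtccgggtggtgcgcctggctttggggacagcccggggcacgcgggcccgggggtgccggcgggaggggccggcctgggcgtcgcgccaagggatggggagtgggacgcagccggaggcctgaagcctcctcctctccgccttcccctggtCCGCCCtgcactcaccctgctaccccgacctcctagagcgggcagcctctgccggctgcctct
ABCB1, chr7:87600835-87601134, minus strand: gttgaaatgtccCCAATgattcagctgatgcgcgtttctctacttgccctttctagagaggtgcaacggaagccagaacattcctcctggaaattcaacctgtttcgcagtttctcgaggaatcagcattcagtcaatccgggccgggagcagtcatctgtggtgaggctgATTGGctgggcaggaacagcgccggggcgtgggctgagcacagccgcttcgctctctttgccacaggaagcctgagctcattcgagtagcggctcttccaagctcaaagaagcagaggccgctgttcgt
ABCC2, chr10:99782390-99782689, plus strand: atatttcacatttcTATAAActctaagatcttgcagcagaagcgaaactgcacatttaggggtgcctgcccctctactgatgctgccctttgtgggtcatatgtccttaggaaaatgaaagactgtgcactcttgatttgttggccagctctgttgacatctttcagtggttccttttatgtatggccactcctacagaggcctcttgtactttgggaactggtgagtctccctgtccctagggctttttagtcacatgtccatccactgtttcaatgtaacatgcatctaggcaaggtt
ABCA12, chr2:215032037-215032336, minus strand: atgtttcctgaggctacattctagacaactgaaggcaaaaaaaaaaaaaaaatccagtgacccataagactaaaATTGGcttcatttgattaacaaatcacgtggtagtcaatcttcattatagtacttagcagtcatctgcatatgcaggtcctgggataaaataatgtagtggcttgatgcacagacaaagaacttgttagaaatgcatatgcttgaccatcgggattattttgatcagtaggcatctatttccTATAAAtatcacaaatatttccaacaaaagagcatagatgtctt
The ABCG4 window held 28 CpG dinucleotides, an observed to expected ratio of 0.689, with 2 GC boxes and 1 antioxidant response element core. The other ABCG4 window, chr11:119148802-119149101, held 26 CpG dinucleotides, a ratio of 0.77, and 1 GC box. The ABCB1 window, which like the printed window of ABCG4 lies inside the annotated gene, held 16 CpG dinucleotides, a ratio of 0.698, and 2 CCAAT boxes. The other ABCB1 window, chr7:87713246-87713545, held 1 CpG dinucleotide, a ratio of 0.102. The ABCC2 window held 1 CpG dinucleotide, a ratio of 0.066, with a TATA box near its 5′ end. The ABCA12 window, which also lies at a start inside the gene, held 2 CpG dinucleotides, a ratio of 0.222, with a CCAAT and a TATA box. The other ABCA12 window, chr2:215138577-215138876, held 1 CpG dinucleotide, a ratio of 0.0568, and no match to any of these motifs. A window was found for 31 of the 41 members, 49 windows in all. A GC box was present in 44.9% of these windows and in 45% of all 35116 windows of the table, a CCAAT box in 22.4% and 34.6%, a TATA box in 16.3% and 11.5%, and the antioxidant response element core in 22.4% and 13.3%. A match to these letters is a description of the sequence and says nothing on binding.

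Depth ranged from 14187401 to 43765330 reads assigned to genes per library. Values are counts scaled to the library size (CPM) after TMM normalisation, and the spread was wider in the experiment of hours (common biological coefficient of variation 0.199, median SE of a log2 fold change 0.20) than in the experiment of days (0.0996 and 0.13). The 8 A549 markers had reads in every group, and their sum was 15332 to 21223 CPM per library. Single markers moved: at an edgeR adjusted p below 0.05, 0 of the 8 passed at 3 h. At each of 24 h, day 3 and day 12, 4 of them rose and 3 fell, where 28.8%, 48.6% and 49.8% of all genes passed. Of 13 markers of leukocytes, fibroblasts, endothelium and hepatocytes, CD3E had no read in any group, and PTPRC and DCN had none in the experiment of hours; their sum was 9.53 to 25.2 CPM in Control_24H, 20.6 to 42.2 in SP_3H, 76.4 to 107 in SP_24H, 32.5 to 34.4 in Control_3D, 92.5 to 106 in SP_3D and 43.2 to 79.3 in SP_12D. Of these, 4 were tested in each experiment. COL1A1 was higher at 24 h, day 3 and day 12 (log2 fold changes 2.48, 2.22 and 1.48), CD14 at 24 h and day 3 (2.22 and 1.08) and PDGFRB at 24 h (3.50), whereas CDH5 was lower at day 3 and day 12 (-0.94 and -1.50); their part in the results below was not tested. Replicate 3 of SP_12D stood apart from the other SP_12D libraries in several members, and the Control_24H libraries differed widely among themselves. In bulk RNA, fewer cells of a type and less RNA per cell cannot be told apart.

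Expressed per exon length (TPM), the family in these cells was dominated by the multidrug resistance proteins ABCC1, ABCC2 and ABCC3, which export conjugated drugs and metabolites. In Control_3D the mean level was 478 ± 24.3 TPM for ABCC3 (SD, n = 3), 348 ± 13.3 TPM for ABCC2 and 178 ± 9.07 TPM for ABCC1, followed by ABCC4 at 54.9 ± 4.07, ABCA3 at 48.2 ± 2.69 and ABCG2 at 47.3 ± 2.43 TPM, the last 2 of which lay within each other's spread. In SP_3D the order became ABCC3 at 311 ± 21.0, ABCC1 at 203 ± 14.2, ABCC2 at 170 ± 12.8 and ABCA3 at 92.8 ± 5.09 TPM, and in SP_12D it was ABCC3 at 271 ± 78.9, ABCC2 at 205 ± 5.44, ABCC1 at 171 ± 3.32 and ABCA3 at 70.5 ± 9 TPM, the gap between ABCC3 and ABCC2 being smaller than the SD of ABCC3. ABCC2 thus moved from well above ABCC1 to below it at day 3.

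As a share of the summed TPM of the 41 members, ABCC1, ABCC2 and ABCC3 together made up 69.9 to 70.9% in the 3 Control_3D libraries, 53.7 to 55.9% in SP_3D and 55.2 to 57.2% in SP_12D, while the 18 lipid transporters made up 9.25 to 9.6%, 19.8 to 20.4% and 17.5 to 19.4%. Neither share overlapped between treated and control libraries. In the experiment of hours the 3 multidrug resistance proteins held 47.0 to 57.8% in Control_24H, 40.9 to 53.0% in SP_3H and 47.1 to 50.3% in SP_24H, which overlap, and the lipid transporters held 8.47 to 12.6%, 12.5 to 14.7% and 17.2 to 21.5%, of which only the SP_24H range lay apart from both others. The control groups themselves differed between the experiments: the multidrug resistance share was lower in every Control_24H library than in every Control_3D library, and ABCC3 averaged 353 ± 111 CPM in Control_24H against 1275 ± 95.4 CPM in Control_3D. The 2 tables were normalised separately, and the experiment, the time in culture and any difference in handling cannot be told apart.

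**Figure D1:**
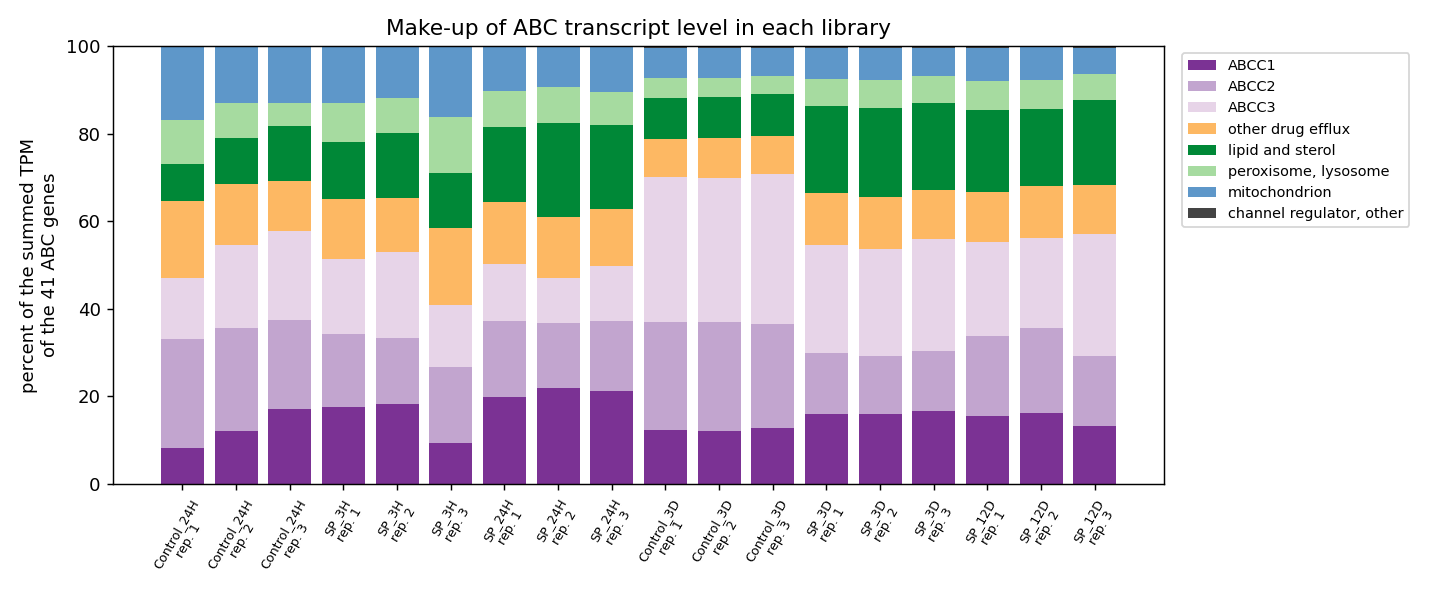
Share of the summed TPM of the 41 ABC transporter genes (y axis, percent) held by ABCC1, ABCC2, ABCC3 and each role in each of the 18 libraries (x axis), as stacked bars that start at 0. ABCC1, ABCC2 and ABCC3 hold 69.9 to 70.9% in the Control_3D libraries and 53.7 to 55.9% in the SP_3D libraries.

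With edgeR's quasi-likelihood test, 27 members had enough reads to be tested in the experiment of hours, among 17377 genes, and 32 in the experiment of days, among 17775 genes; a gene passed at a Benjamini-Hochberg adjusted p below 0.05 over all genes of its table. After 3 h 4 of 27 members passed (14.8%, with 11.5% of all genes tested), 3 higher (7.39% of all genes) and 1 lower (4.11%). After 24 h 13 of 27 passed (48.1%, with 28.8% of all genes), 11 higher (16.8%) and 2 lower (12%). At day 3 19 of 32 passed (59.4%, with 48.6% of all genes), 14 higher (25.2%) and 5 lower (23.3%), and at day 12 20 of 32 passed (62.5%, with 49.8% of all genes), 13 higher (26.4%) and 7 lower (23.4%). These shares are a description, since the members were not tested as a group. At 3 h, day 3 and day 12 the share that passed in either direction lay near that of all genes. By direction, more members rose than fell at day 3 and day 12, while all genes split almost evenly. Without replicate 3 of SP_12D the day 12 split was 12 higher and 11 lower, where 4934 of all 18067 genes were higher and 4990 lower. The median log2 fold change of the tested members was 0.11, 0.56, 0.21 and 0.13 at 3 h, 24 h, day 3 and day 12, and that of all genes tested was 0.00, -0.01, -0.02 and -0.00.

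Taken by role, of the lipid and sterol transporters 2 rose and 0 fell of 9 tested at 3 h, 5 rose and 1 fell of 9 at 24 h, 7 rose and 1 fell of 12 at day 3, and 6 rose and 1 fell of 12 at day 12, with medians of 0.48, 1.39, 0.60 and 0.39. The drug exporters went both ways: of 8 tested at each time, 0 rose and 1 fell at 3 h, 1 rose and 0 fell at 24 h, 2 rose and 2 fell at day 3, and 3 rose and 2 fell at day 12, with medians of -0.06, 0.08, 0.09 and 0.03. Of 4 transporters of peroxisomes and lysosomes 1, 2, 3 and 3 rose and 0 fell. Of the 4 mitochondrial members, 1 rose and 1 fell at 24 h, 2 fell at day 3 and 3 fell at day 12. Differences between the roles were not tested.

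**Figure D2:**
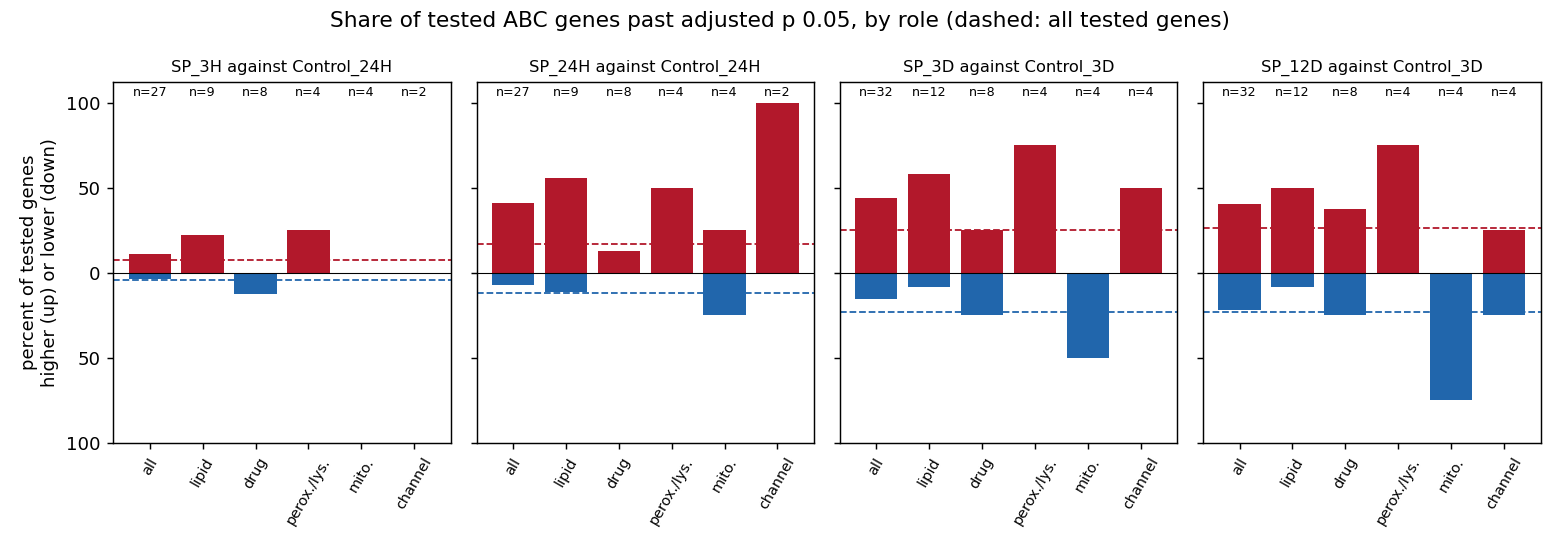
Percent of the tested members of each role (y axis, percent) that were higher or lower past an adjusted p of 0.05 in each comparison, as bars from 0, upward for higher and downward for lower, with dashed lines for all genes tested. At 24 h 5 of 9 lipid and sterol transporters were higher, while 1 of 8 drug exporters was.

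A stricter threshold asked for an adjusted p below 0.0001 and a change of at least 2-fold. It was met by 5 of 32 members at day 3 (8.44% of all genes), 3 of them higher (6.58%), ABCA7, ABCB1 and ABCG4, and 2 lower (1.86%), ABCA12 and ABCC2. At day 12 it was met by 3 of 32 (9.11%), 2 of them higher (6.88%), ABCA1 and ABCG4, and 1 lower (2.23%), ABCA12. With edgeR it was met by 0 of 27 members at 3 h (0% of all genes). At 24 h it was also met by 0 of 27 (0.685% of all genes, 0.622% higher and 0.0633% lower). There 7 and 17 members had an unadjusted p below 0.05 and 2 and 9 changed 2-fold or more, without a count over all genes. With DESeq2 it was met by 1 and 5 members. Of all 17377 genes DESeq2 called 297 higher and 118 lower at 3 h, and 997 higher and 195 lower at 24 h. All 3 SP libraries lay on one side of all 3 control libraries for 8 of 27 members at 3 h (27.3% of all genes), 16 of 27 at 24 h (44.4%), 21 of 32 at day 3 (61.2%) and 21 of 32 at day 12 (55.9%).

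**Figure D3:**
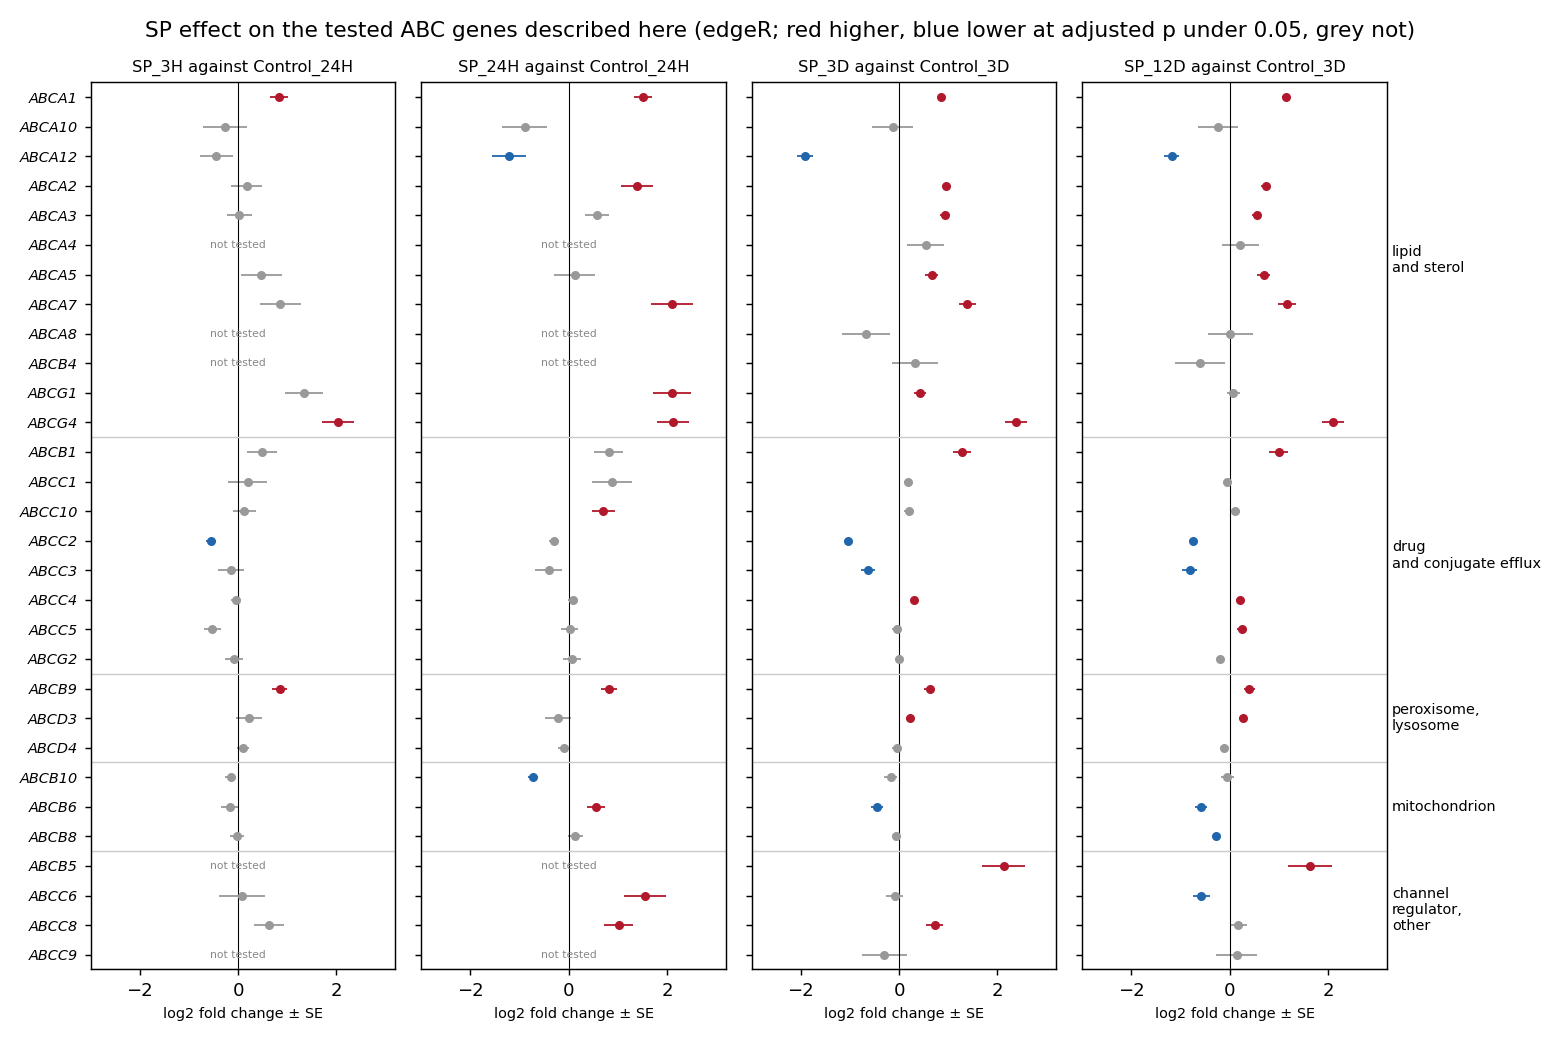
Log2 fold change against the control of the same experiment (x axis) with its SE as the error bar for the tested ABC transporter genes described here (y axis, grouped by role) in 4 panels, one per comparison, in red where higher and blue where lower past an adjusted p of 0.05 and in grey otherwise. ABCG4 stands at 2.03, 2.13, 2.38 and 2.11, and ABCA12 at -1.92 at day 3.

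Among the lipid transporters, ABCG4, ABCG1 and ABCA1 act in the efflux of cholesterol to lipoproteins, ABCA1 to lipid-poor apolipoprotein A-I and the ABCG pair to larger particles. ABCG4 (ENSG00000172350, chr11:119149052-119162653) was the member that rose in all 4 comparisons by more than 4-fold. It stood at 0.582, 0.528 and 0.491 CPM in Control_24H, 1.69, 3.11 and 1.59 CPM in SP_3H and 1.98, 2.31 and 2.7 CPM in SP_24H, and at 0.909, 1.13 and 0.887 CPM in Control_3D, 4.69, 4.81 and 5.68 CPM in SP_3D and 3.35, 4.04 and 5.10 CPM in SP_12D. Every SP library was above every control library of its experiment, although the level remained low throughout. The log2 fold change of ABCG4 was 2.03 ± 0.33 at 3 h (SE; edgeR, adjusted p = 0.0046), 2.13 ± 0.32 at 24 h (adjusted p = 0.0013), 2.38 ± 0.23 at day 3 (adjusted p = 4.4e-07) and 2.11 ± 0.23 at day 12 (adjusted p = 1.5e-06).

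ABCA1 (ENSG00000165029, chr9:104781006-104928155) stood at 11.1, 13.3 and 19.4 CPM in Control_24H, 24.8, 27.4 and 25.4 CPM in SP_3H and 40.5, 42.1 and 42.7 CPM in SP_24H. In the experiment of days it stood at 40.8, 45.4 and 45.3 CPM in Control_3D, 81.1, 74.3 and 80.2 CPM in SP_3D and 99.1, 93.4 and 99.2 CPM in SP_12D. The groups of each experiment did not overlap, and the group treated longer had the higher level in both. The log2 fold change was 0.82 ± 0.18 at 3 h (edgeR, adjusted p = 0.019), 1.51 ± 0.18 at 24 h (adjusted p = 0.00047), 0.84 ± 0.08 at day 3 (adjusted p = 4.5e-07) and 1.15 ± 0.08 at day 12 (adjusted p = 1.3e-08). The rise of ABCA1 at 3 h no longer passed without replicate 1 or 2 of Control_24H (adjusted p = 0.054 and 0.075) or replicate 1 or 2 of SP_3H (0.05 and 0.075), nor when the fit held the SP_3H and Control_24H libraries alone. Between the SP groups, ABCA1 was higher at 24 h than at 3 h by 0.69 ± 0.18 (adjusted p = 0.026) and higher at day 12 than at day 3 by 0.31 ± 0.08 (adjusted p = 0.025).

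ABCG1 (ENSG00000160179, chr21:42199689-42297244) measured 2.12, 6.08 and 4.94 CPM in Control_24H, 8.61, 15.0 and 9.50 CPM in SP_3H and 14.2, 25.8 and 16.7 CPM in SP_24H, so that each treated group was above all control libraries. Its log2 fold change was 1.33 ± 0.39 at 3 h, which did not pass (edgeR, adjusted p = 0.058), and 2.11 ± 0.39 at 24 h (adjusted p = 0.0044). With the replicate number as a block the 3 h value was 1.37 (adjusted p = 0.011). At days the pattern was smaller: 23.5, 22.3 and 24.5 CPM in Control_3D, 30.0, 32.4 and 32.4 CPM in SP_3D and 25.3, 19.4 and 29.4 CPM in SP_12D. SP_3D lay above its control at 0.43 ± 0.12 (adjusted p = 0.0092), whereas SP_12D overlapped it at 0.08 ± 0.12 (95% confidence interval -0.19 to 0.34, adjusted p = 0.63).

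ABCA7 (ENSG00000064687, chr19:1039997-1065572), a phospholipid transporter related to ABCA1, was higher at 24 h and at both times in days. It measured 6.51, 16.7 and 18.1 CPM in Control_24H, 20.5, 37.6 and 16.6 CPM in SP_3H and 43.8, 75.7 and 59.1 CPM in SP_24H. The Control_3D libraries held 44.1, 41.4 and 52.2 CPM, the SP_3D libraries 116, 118 and 125 CPM and the SP_12D libraries 92.6, 79.6 and 137 CPM. At 3 h the groups overlapped and the change of 0.86 ± 0.42 did not pass (edgeR, adjusted p = 0.25), while the groups were separate at 24 h (2.11 ± 0.43, adjusted p = 0.0069), day 3 (1.38 ± 0.17, adjusted p = 7.4e-05) and day 12 (1.17 ± 0.17, adjusted p = 0.00024). The 137 CPM of replicate 3 of SP_12D was the highest value of the gene, and without that library the day 12 change was 0.89 (adjusted p = 7.6e-09).

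ABCA3 (ENSG00000167972, chr16:2275881-2340746), which loads surfactant phospholipids into lamellar bodies of alveolar type II cells, was the lipid transporter with the highest level per length. It measured 65.3, 93.7 and 133 CPM in Control_24H, 103, 119 and 74.7 CPM in SP_3H and 132, 162 and 143 CPM in SP_24H, and neither treated group was clear of its control (log2 fold changes 0.03 ± 0.25 and 0.58 ± 0.25, edgeR adjusted p = 0.97 and 0.11). Without replicate 3 of Control_24H the 24 h change was 0.87 (adjusted p = 0.014). At days it rose from 100.4, 98.1 and 115 CPM in Control_3D to 189, 195 and 215 CPM in SP_3D and 148, 141 and 171 CPM in SP_12D, with no overlap, by 0.93 ± 0.09 (adjusted p = 8.6e-07) and 0.55 ± 0.09 (adjusted p = 0.00015). ABCA3 was lower at day 12 than at day 3 by 0.38 on the log2 scale (-0.38 ± 0.09, adjusted p = 0.021). Of the 6 markers of alveolar type II cells, 3 had enough reads to be tested; LAMP3, a lamellar body protein, was higher at 24 h (2.45, adjusted p = 0.0013), day 3 (3.68, adjusted p = 8e-07) and day 12 (3.83, adjusted p = 3.55e-07). SFTPC, a surfactant protein, was tested in hours and was higher at 24 h (5.15, adjusted p = 0.00029), whereas NAPSA, a protease that processes surfactant protein, did not pass at any time and SFTPD, tested in days, did not pass at day 3 or day 12 (-0.67 and -0.24, adjusted p = 0.27 and 0.68). The median over the tested markers was 0.07 at day 3 and -0.10 at day 12, and SFTPA1 had no read in 4 of the 6 groups, which are both controls and both SP groups of hours. Levels were low, as the 6 markers summed to 0.635 to 1.37 CPM in Control_24H and 2.51 to 3.42 CPM in SP_24H. In days the sum was 2.96 to 4.01 CPM in Control_3D, 5.92 to 6.34 CPM in SP_3D and 5.06 to 7.67 CPM in SP_12D.

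ABCA12 (ENSG00000144452, chr2:214931542-215138626), which carries glucosylceramide into lamellar granules of the epidermis, went the other way. It measured 4.98, 5.92 and 3.65 CPM in Control_24H, 2.05, 4.54 and 3.83 CPM in SP_3H and 2.02, 2.84 and 1.28 CPM in SP_24H, and 15.9, 16.9 and 16.8 CPM in Control_3D, 4.94, 4.33 and 3.89 CPM in SP_3D and 7.52, 8.88 and 5.63 CPM in SP_12D. The SP_24H, SP_3D and SP_12D libraries were all below their controls, and the SP_3H libraries overlapped them. The log2 fold change was -0.44 ± 0.34 at 3 h (edgeR, adjusted p = 0.49), -1.21 ± 0.35 at 24 h (adjusted p = 0.028), -1.92 ± 0.16 at day 3 (adjusted p = 1.2e-07) and -1.18 ± 0.15 at day 12 (adjusted p = 9.2e-06), and the level at day 12 was above that at day 3 by 0.74 ± 0.17 (adjusted p = 0.013). The fall at 24 h no longer passed without replicate 1 or 2 of Control_24H (adjusted p = 0.068 and 0.085) or replicate 1 or 3 of SP_24H (0.067 and 0.092).

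Other lipid transporters that passed were ABCA2, an endosomal sterol and sphingolipid transporter, higher at 24 h (1.39 ± 0.32, edgeR adjusted p = 0.012), day 3 (0.96 ± 0.10, 6.9e-07) and day 12 (0.73 ± 0.09, 1.1e-05), and ABCA5, higher at day 3 (0.67 ± 0.13, 0.00069) and day 12 (0.69 ± 0.13, 0.00047). With no filter on low counts ABCA2 did not pass at 24 h (1.39, adjusted p = 0.065), and with each library's trends with GC content and gene length removed ABCA5 was also higher at 3 h and 24 h (0.61 and 0.74, adjusted p = 0.029 and 0.0060). ABCA5 and its neighbour ABCA10 share 318 exonic bases on the same strand, so that reads of the 2 genes can be mixed. ABCA10, ABCA4, ABCA8 and ABCB4, all below 10 CPM, did not pass at any time they were tested. Without replicate 3 of SP_12D, however, ABCA8 (-0.91, adjusted p = 0.00045), ABCA10 (-0.98, adjusted p = 0.023) and ABCB4 (-1.68, adjusted p = 0.01) were lower at day 12. ABCA8 was then also lower at day 3 (-0.68, adjusted p = 0.0019). That library held 8.11 CPM of ABCA8, against 2.28 and 2.35 CPM in the other SP_12D libraries and 4.45, 4.95 and 3.55 CPM in Control_3D.

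Among partners of sterol transport, of 14 genes tested from a list of 16 that encode apolipoproteins, lipoprotein receptors and related proteins, 0 passed at 3 h, 8 rose and 0 fell at 24 h, 8 rose and 0 fell at day 3, and 8 rose and 1 fell at day 12. These are 57.1%, 57.1% and 64.3% of the tested genes at 24 h, day 3 and day 12, where 28.8%, 48.6% and 49.8% of all genes passed, so at days the share lay near that of all genes. The same shares, with 11.5% at 3 h, are the background of the lists of partner genes below. APOE, an apolipoprotein that accepts cholesterol, rose by 3.04 at 24 h, 2.33 at day 3 and 2.86 at day 12 on the log2 scale (edgeR, adjusted p = 9.7e-05, 4.7e-07 and 7.3e-08). PLTP, which transfers phospholipids between lipoproteins, rose at 24 h (1.53, adjusted p = 0.00019) and was the gene that fell at day 12 (-0.75, adjusted p = 0.012).

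Among the drug exporters, ABCC2 and ABCC3, the most abundant members in Control_3D, fell at days, and the rise that was largest on the log2 scale was in ABCB1, a member of low level. ABCB1 (ENSG00000085563, chr7:87503017-87713323), P-glycoprotein, which exports a wide range of hydrophobic drugs, stood at 2.01, 2.69 and 1.61 CPM in Control_24H, 2.26, 3.79 and 2.61 CPM in SP_3H and 4.09, 4.43 and 2.5 CPM in SP_24H, with 1 SP_24H library inside the control range. In the experiment of days it stood at 2.82, 3.63 and 2.96 CPM in Control_3D, 7.01, 7.86 and 7.84 CPM in SP_3D and 5.88, 4.94 and 7.80 CPM in SP_12D, all SP libraries being above all controls. The log2 fold change was 0.49 ± 0.30 at 3 h (edgeR, adjusted p = 0.37) and 0.82 ± 0.30 at 24 h (adjusted p = 0.065), neither past the threshold, then 1.28 ± 0.19 at day 3 (adjusted p = 3.9e-05) and 1.00 ± 0.19 at day 12 (adjusted p = 0.00038). With the replicate number as a block the 24 h change of ABCB1 was 0.80 and passed (adjusted p = 0.025), and without replicate 3 of SP_24H it was 1.03 (adjusted p = 0.039).

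ABCC2 (ENSG00000023839, chr10:99782640-99852594), also called MRP2 and known to export glutathione conjugates and cisplatin adducts, stood at 332, 391 and 357 CPM in Control_24H, 255, 260.4 and 220.5 CPM in SP_3H and 312, 278 and 285 CPM in SP_24H. At days it fell from 736, 754 and 778 CPM in Control_3D to 363, 338 and 396 CPM in SP_3D and 443, 461 and 444 CPM in SP_12D. No SP group overlapped its control. The log2 fold change was -0.55 ± 0.11 at 3 h (edgeR, adjusted p = 0.01), -0.30 ± 0.11 at 24 h, which did not pass (adjusted p = 0.058), -1.05 ± 0.08 at day 3 (adjusted p = 4.9e-08) and -0.75 ± 0.08 at day 12 (adjusted p = 1.5e-06). The 24 h value passed without replicate 1 of Control_24H (-0.38, adjusted p = 0.042) and without replicate 3 of SP_3H (-0.31, adjusted p = 0.047). ABCC2 was higher at day 12 than at day 3 by 0.30 ± 0.08 (adjusted p = 0.035).

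ABCC3 (ENSG00000108846, chr17:50634777-50692253), or MRP3, an exporter of glucuronides and bile salts, stood at 228, 389 and 441 CPM in Control_24H, 326, 414 and 217 CPM in SP_3H and 286, 239 and 274 CPM in SP_24H, which overlap. It stood at 1214, 1227 and 1385 CPM in Control_3D, 792, 779.7 and 895 CPM in SP_3D and 629, 599 and 946 CPM in SP_12D, both SP groups lying below the control. Its log2 fold change was -0.15 ± 0.27 and -0.41 ± 0.27 at 3 h and 24 h (edgeR, adjusted p = 0.80 and 0.29), -0.63 ± 0.15 at day 3 (adjusted p = 0.0028) and -0.81 ± 0.15 at day 12 (adjusted p = 0.00043). With the trends of GC content and length removed, the 24 h value passed (-0.67, adjusted p = 0.014). Without replicate 3 of SP_12D, the library at 946 CPM, the day 12 change was -1.07 (adjusted p = 4.4e-11).

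ABCC1 (ENSG00000103222, chr16:15949138-16143257), or MRP1, which exports glutathione conjugates and leukotriene C4, ranged from 122 through 228 to 339.6 CPM in Control_24H and stood at 305, 353 and 130.4 CPM in SP_3H and 398, 458 and 418 CPM in SP_24H. It stood at 413, 411 and 471 CPM in Control_3D, 466, 463 and 533 CPM in SP_3D and 417, 429.6 and 407 CPM in SP_12D. All SP_24H libraries were above all controls, but the control libraries spread widely and the change of 0.89 ± 0.41 did not pass (edgeR, adjusted p = 0.13). Without replicate 3 of Control_24H it was 1.28 (adjusted p = 0.04). The other changes, 0.19 ± 0.40 at 3 h, 0.18 ± 0.09 at day 3 and -0.05 ± 0.09 at day 12, did not pass either (adjusted p = 0.83, 0.1 and 0.68), although the day 3 value passed without replicate 3 of Control_3D (0.24, adjusted p = 0.037) or of SP_12D (0.17, adjusted p = 0.035).

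ABCG2 (ENSG00000118777, chr4:88090150-88231628), the breast cancer resistance protein, stood at 62.3, 58.0 and 37.3 CPM in Control_24H, 50.6, 48.4 and 49.1 CPM in SP_3H and 58.5, 59.5 and 47.4 CPM in SP_24H. It stood at 69.7, 72.4 and 78.8 CPM in Control_3D, 70.5, 75.3 and 75.0 CPM in SP_3D and 58.2, 62.8 and 71.6 CPM in SP_12D, and each SP group overlapped its control. The 95% confidence interval of its log2 fold change was -0.49 to 0.32 at 3 h, -0.33 to 0.48 at 24 h, -0.19 to 0.19 at day 3 and -0.38 to -0.01 at day 12, none of which passed (edgeR, adjusted p = 0.82, 0.78, 1.00 and 0.079). The value at day 12 passed without replicate 3 of SP_12D (-0.30, adjusted p = 0.0024) and with the replicate number as a block (-0.20, adjusted p = 0.039), and the value at 24 h passed with the trends of GC content and length removed (0.43, adjusted p = 0.015).

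Smaller changes were seen in ABCC4, an exporter of cyclic nucleotides and nucleoside analogues, at day 3 (0.31 ± 0.07, edgeR adjusted p = 0.0021) and day 12 (0.21 ± 0.07, 0.023), in ABCC5, of related substrates, at day 12 (0.25 ± 0.10, 0.038), and in ABCC10 at 24 h (0.71 ± 0.23, 0.041). The last 3 values depended on single libraries. ABCC4 at day 12 no longer passed without replicate 1 of Control_3D (adjusted p = 0.11), replicate 1 or 2 of SP_3D (0.055 and 0.053) or replicate 1 or 2 of SP_12D (0.075 and 0.060). ABCC5 no longer passed without any single library other than replicate 2 of Control_3D and replicate 3 of SP_3D (adjusted p from 0.053 to 0.11), and ABCC10 without any single library other than replicate 3 of Control_24H and replicate 3 of SP_3H (adjusted p from 0.054 to 0.14). With the trends of GC content and length removed, ABCC10 at 24 h did not pass (0.34, adjusted p = 0.062). At 3 h ABCC5 did not pass (-0.52 ± 0.18, adjusted p = 0.1), but it was lower without replicate 1 of Control_24H (-0.69, adjusted p = 0.045) and with the trends of GC content and length removed (-0.56, adjusted p = 0.0076). The remaining exporter, ABCC11, had too few reads to be tested.

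**Figure D4:**
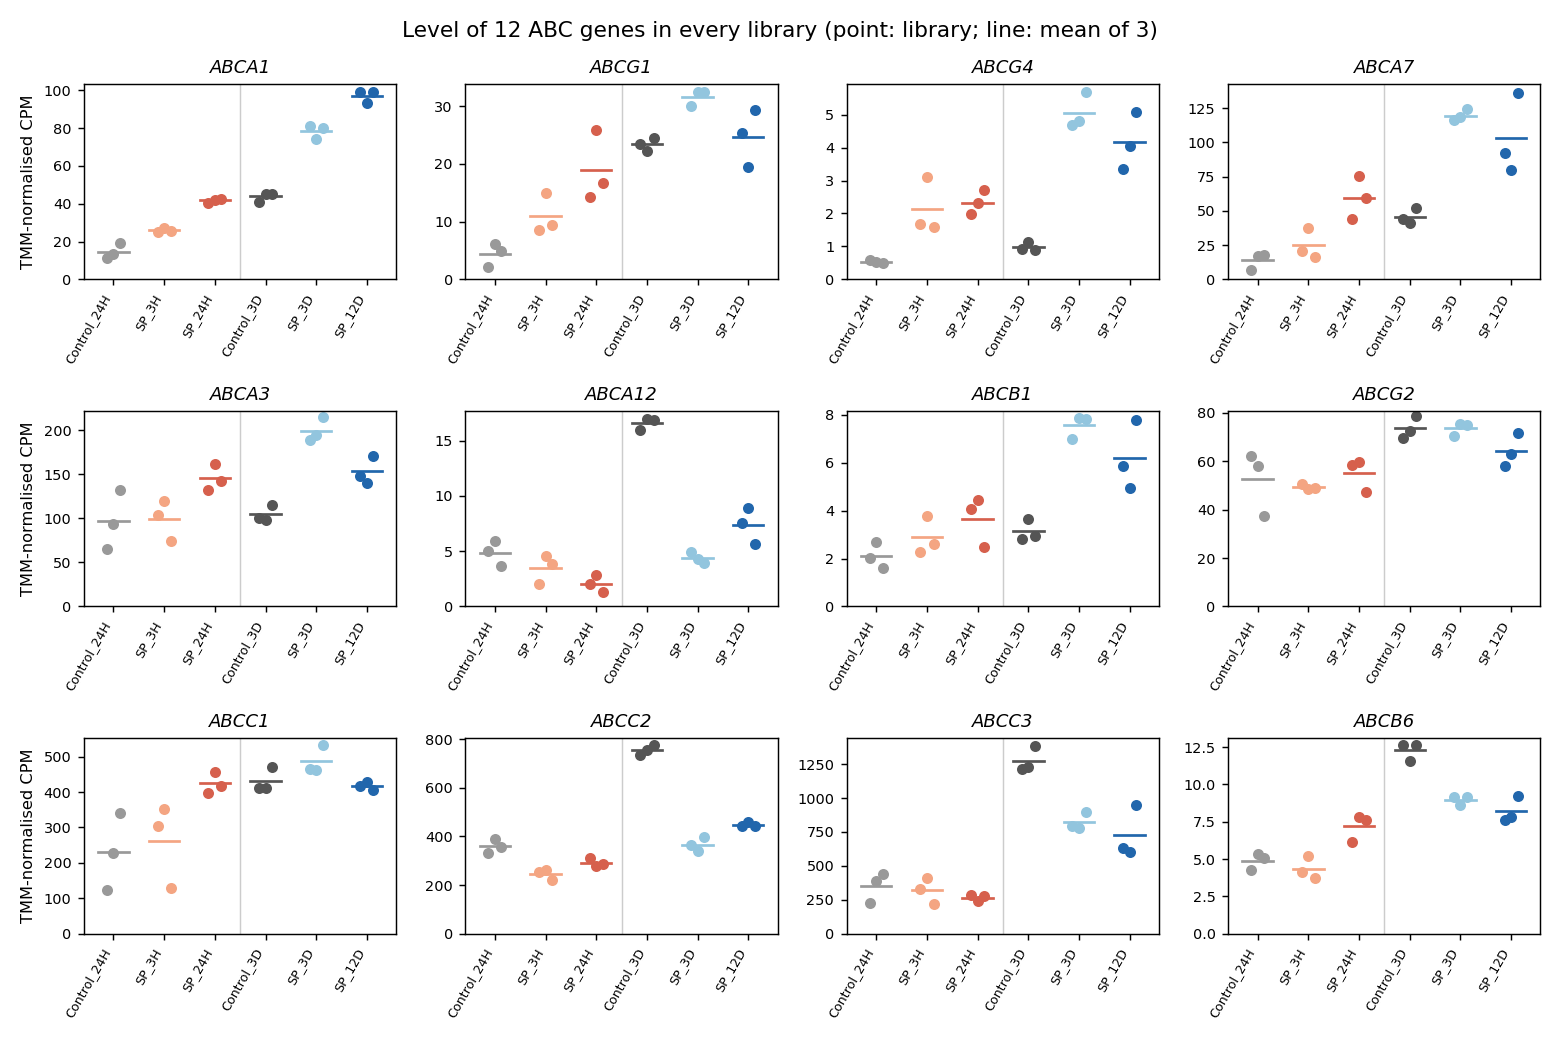
CPM (y axis, from 0 in each panel) of 12 ABC transporter genes in each of the 18 libraries (points), in 6 groups along the x axis, with a line at the mean of the 3 libraries. The 3 SP_3D libraries of ABCC2 lie at 338 to 396 CPM, all below the 736 to 778 CPM of Control_3D, and those of ABCB1 lie at 7.01 to 7.86 CPM, all above the 2.82 to 3.63 CPM of Control_3D.

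Conjugate exporters act downstream of glutathione conjugation, and of 15 genes of that pathway 0 passed at 3 h, 4 rose and 6 fell at 24 h, 2 rose and 6 fell at day 3, and 3 rose and 8 fell at day 12. GCLC, the catalytic subunit of the enzyme that limits glutathione synthesis, was lower at 24 h (-0.92, edgeR adjusted p = 0.00047), day 3 (-1.21, 2.2e-08) and day 12 (-1.12, 4.2e-08), and SLC7A11, the cystine importer, was lower at day 3 (-1.69, 1.5e-05) and day 12 (-1.41, 5.2e-05). GSTM3, a glutathione transferase, was higher at 24 h (1.07, 0.00081), day 3 (1.04, 7.4e-06) and day 12 (0.74, 0.00021). GSTM4 was higher at 24 h (0.94, 0.0070) and lower at day 12 (-0.49, 0.0060).

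Of 17 tested genes for nuclear receptors and other factors known to act on ABC genes, from a list of 19, 1 rose and 4 fell at 3 h, 5 rose and 2 fell at 24 h, 6 rose and 8 fell at day 3, and 5 rose and 7 fell at day 12. KEAP1, the adaptor through which NRF2 is degraded, was lower in all 4 comparisons (-1.41, -1.02, -1.53 and -1.34, edgeR adjusted p from 2.1e-08 to 0.00048). PPARA, a receptor of fatty acids, was higher in all 4 (1.40, 1.42, 1.26 and 1.12, adjusted p from 1.2e-06 to 0.01), and SREBF1, a factor of lipid synthesis, was higher at 24 h, day 3 and day 12 (1.78, 1.00 and 0.67, adjusted p from 1.2e-07 to 0.0099).

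Uptake carriers bring organic ions into cells against which many ABC proteins export. Of 17 listed, 14 were tested in hours and 15 in days, and 2 rose and 0 fell at 3 h, 4 rose and 2 fell at 24 h, 6 rose and 1 fell at day 3, and 7 rose and 1 fell at day 12. The shares that passed were 14.3%, 42.9%, 46.7% and 53.3%, beside 11.5%, 28.8%, 48.6% and 49.8% of all genes. SLCO5A1 was higher in all 4 comparisons (1.18, 1.08, 3.38 and 3.73, edgeR adjusted p from 1.9e-09 to 0.013). SLC22A3 was lower at 24 h, day 3 and day 12 (-0.69, -0.48 and -0.43, adjusted p = 0.0017, 0.00011 and 0.00028), and SLC22A4 at 24 h (-0.60, 0.012).

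In peroxisomes, ABCD3, the 70 kDa peroxisomal membrane protein, was slightly higher at day 3 (0.22 ± 0.08, edgeR adjusted p = 0.032) and day 12 (0.28 ± 0.08, adjusted p = 0.0095). The first no longer passed without any single library other than replicate 2 of Control_3D and replicates 2 and 3 of SP_12D (adjusted p from 0.053 to 0.098), and the second without replicate 1 or 2 of SP_12D (0.064 for both). The first also did not pass with no filter on low counts (adjusted p = 0.055). ABCD4, of lysosomal cobalamin export, did not pass at any time.

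ABCB9, a lysosomal peptide transporter, was higher in all 4 comparisons, by 0.84 ± 0.16 at 3 h (edgeR, adjusted p = 0.0084), 0.82 ± 0.15 at 24 h (adjusted p = 0.0043), 0.62 ± 0.11 at day 3 (adjusted p = 0.00024) and 0.40 ± 0.11 at day 12 (adjusted p = 0.0069). Of its exonic bases 3262 are shared with genes of the opposite strand, ARL6IP4 and OGFOD2 among them, and without knowledge of the strand used in counting their reads cannot be told apart. With the trends of GC content and length removed, ABCB9 did not pass at 24 h, day 3 or day 12 (adjusted p = 0.15, 0.085 and 0.33). Of 12 other peroxisomal genes, 1 rose and 0 fell at 3 h, 1 rose and 1 fell at 24 h, 1 rose and 3 fell at day 3, and 2 rose and 4 fell at day 12. SLC27A2, a very-long-chain acyl-CoA synthetase, was higher at 24 h, day 3 and day 12 (1.06, 1.56 and 1.45, adjusted p = 0.00030, 1.7e-09 and 3.5e-09). PEX19, a peroxisomal import receptor, was lower at 24 h, day 3 and day 12 (-0.58, -0.31 and -0.22, adjusted p = 0.0063, 0.0055 and 0.033), and ACBD5, an acyl-CoA binding protein of the membrane, at day 3 and day 12 (-0.51 and -0.55, adjusted p = 0.00012 and 4.8e-05).

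Of the mitochondrial members, ABCB6 (ENSG00000115657, chr2:219209772-219218994), a porphyrin transporter, measured 4.29, 5.34 and 5.05 CPM in Control_24H, 4.16, 5.19 and 3.75 CPM in SP_3H and 6.15, 7.79 and 7.63 CPM in SP_24H, but 12.7, 11.6 and 12.6 CPM in Control_3D, 9.15, 8.65 and 9.15 CPM in SP_3D and 7.59, 7.83 and 9.22 CPM in SP_12D. The SP_24H libraries were all above and the SP_3D and SP_12D libraries all below their controls. The log2 fold change was -0.16 ± 0.18 at 3 h (edgeR, adjusted p = 0.66), 0.56 ± 0.17 at 24 h (adjusted p = 0.04), -0.45 ± 0.12 at day 3 (adjusted p = 0.0053) and -0.58 ± 0.12 at day 12 (adjusted p = 0.00082). Of the fits with 1 library left out, the 24 h rise passed without replicate 2 or 3 of SP_3H or replicate 1 of SP_24H, and without any other single library its adjusted p was 0.053 to 0.15. With no filter on low counts it did not pass (adjusted p = 0.070). ABCB6 shares 2841 exonic bases with an overlapping readthrough gene on its own strand, so its counts are uncertain.

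ABCB8, a member of the inner membrane, was lower at day 12 (-0.28 ± 0.09, edgeR adjusted p = 0.012), and ABCB10, an erythroid haem synthesis factor, was lower at 24 h (-0.73 ± 0.11, adjusted p = 0.0013). The fall of ABCB8 no longer passed without replicate 3 of Control_3D (adjusted p = 0.057), and with the trends of GC content and length removed ABCB8 was also lower at 24 h and day 3 (-0.30 and -0.36, adjusted p = 0.016 and 0.00028). Of 15 genes of haem and iron-sulphur synthesis, 2 rose and 0 fell at 3 h, 1 rose and 3 fell at 24 h, 4 rose and 3 fell at day 3, and 5 rose and 2 fell at day 12. NFS1, the cysteine desulphurase, was higher at 24 h, day 3 and day 12 (0.33, 0.51 and 0.38, adjusted p = 0.033, 0.00022 and 0.0021), and SLC25A28, a mitochondrial iron importer, at 3 h (0.70, 0.0067). SLC25A38, a mitochondrial glycine carrier, was lower at 24 h, day 3 and day 12 (-0.43, -0.46 and -0.32, adjusted p = 0.009, 0.00029 and 0.0047).

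The remaining members were low. ABCB5, best known from melanocytes and melanoma, was tested in days, with 0.765, 0.439 and 0.296 CPM in Control_3D, 2.56, 2.38 and 1.91 CPM in SP_3D and 1.20, 0.848 and 2.66 CPM in SP_12D. All SP libraries were above all controls, and the log2 fold change was 2.13 ± 0.44 at day 3 (edgeR, adjusted p = 0.00087) and 1.63 ± 0.45 at day 12 (adjusted p = 0.0069), the latter 0.93 without replicate 3 of SP_12D. In the experiment of hours ABCB5 had 2 reads in Control_24H, 6 in SP_3H and 40 in SP_24H, a depth-scaled ratio of 13.4 at 24 h with an exact 95% interval of 3.48 to 114 that covers counting error only. ABCC6, an exporter of ATP from hepatocytes, was higher at 24 h (1.55 ± 0.42, adjusted p = 0.022) and lower at day 12 (-0.57 ± 0.18, adjusted p = 0.013), but pseudogenes nearly identical to part of it make its counts uncertain. ABCC8, the sulphonylurea receptor of ATP-sensitive potassium channels, was higher at 24 h (1.02 ± 0.29, adjusted p = 0.028) and day 3 (0.72 ± 0.17, adjusted p = 0.0027), and its partner form ABCC9 did not pass. At 24 h ABCC6 no longer passed without replicate 1 of Control_24H or replicate 1 or 2 of SP_24H (adjusted p = 0.053, 0.058 and 0.067), nor ABCC8 without replicate 1 of Control_24H or any 1 SP_24H library (adjusted p from 0.057 to 0.1) or with the trends of GC content and length removed (0.062).

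In all, 18 of the 41 members were higher and 8 were lower in at least 1 of the 4 comparisons with a control, ABCB6 and ABCC6 in both directions; 8 were tested and passed in none, and 9 had too few reads to be tested in either table. These 9 were ABCA6, ABCA9, ABCA13, ABCB11, ABCC11, ABCC12, ABCD2, ABCG5 and ABCG8. ABCA9 had 0 reads in Control_3D, which allows up to 3 reads over the group or 0.0564 CPM, 10 reads in SP_3D and 13 in SP_12D. ABCA13 had 1 read in Control_3D and 16 in SP_12D, a ratio of 14.7 (exact 95% interval 2.29 to 618), and ABCD2, a peroxisomal importer of fatty acyl-CoA, had 5 and 25 reads, a ratio of 4.6 (1.73 to 15.4), while ABCC12 went from 17 reads in Control_3D to 4 in SP_3D, a ratio of 0.256 (0.0626 to 0.783). These intervals cover counting error only.

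Of 7 further ABC proteins outside the rule, 0 passed at 3 h, 0 rose and 1 fell at 24 h, 1 rose and 3 fell at day 3, and 2 rose and 2 fell at day 12. CFTR, the chloride channel of cystic fibrosis, was higher at day 3 (1.78, edgeR adjusted p = 0.038) and day 12 (1.88, adjusted p = 0.028), and TAP1, of the peptide transporter of antigen presentation, at day 12 (0.31, adjusted p = 0.0091), while TAP2 did not pass. ABCE1, which recycles ribosomes, was lower at day 3 (-0.49, adjusted p = 0.0068). Of the ABCF proteins, which act in translation, ABCF1 was lower at day 3 (-0.24, adjusted p = 0.047) and day 12 (-0.35, adjusted p = 0.0063), ABCF2 at 24 h (-0.42, adjusted p = 0.025) and day 3 (-0.52, adjusted p = 0.015) and ABCF3 at day 12 (-0.23, adjusted p = 0.048).

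The SP groups of each experiment were also compared directly, where the duration of treatment and the time of collection cannot be told apart. Between 24 h and 3 h 6 of 27 members passed (20.1% of all genes), 5 higher (11.7%) and 1 lower (8.4%) at 24 h, and between day 12 and day 3 4 of 32 passed (8.1% of all genes), 3 higher (4.46%) and 1 lower (3.65%) at day 12. The strict call was met by 0 members in both (0.0288% of all genes, all higher, and 0.18%). There 10 and 12 members had an unadjusted p below 0.05, without a count over all genes. DESeq2 called 1 member in the first, where it called 555 of all 17377 genes higher and 101 lower. ABCA2 (1.21 ± 0.32, edgeR adjusted p = 0.028; 0.12 with no filter on low counts), ABCC6, ABCB6 and ABCA1 were among those higher at 24 h than at 3 h, and ABCB10 was lower (-0.57 ± 0.11, 0.0066). ABCA1, ABCA12 and ABCC2 were higher at day 12 than at day 3, and ABCA3 was lower. Without replicate 3 of SP_12D 18 of 32 members passed in the latter comparison, 4 higher and 14 lower. Of all 18067 genes tested in that fit, 2456 were higher and 2617 lower.

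The effect of SP was also compared between the experiments, in 1 model of all 18 libraries. The difference between the 24 h and the day 3 effect passed for 5 of 33 members (6.28% of all genes), and that between the 24 h and the day 12 effect for 6 of 33 (15.7%). ABCB6, the member that rose at 24 h and fell at days, differed by 0.97 and 1.10 on the log2 scale (edgeR, adjusted p = 0.0096 and 0.0018), and ABCG1, whose rise at 24 h was the larger, by 1.64 and 1.99 (adjusted p = 0.028 and 0.0046). The experiments differ in their controls as well as in time, and these cannot be told apart.

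Promoter composition was set beside the direction of change as a description only. At day 3 the 10 windows of the 14 members that rose had a median CpG observed to expected ratio of 0.943 (range 0.689 to 1.2), taking the window richest in CpG for each gene, the 3 windows of the 5 members that fell had 0.222 (0.066 to 0.711), and the 9 windows of the 13 that did not pass had 0.827. At day 12 the medians were 0.926 for 11 windows of members that rose, 0.538 for 5 windows of members that fell and 0.883 for 6 of those that did not pass. The low values among the members that fell are those of the ABCC2 and ABCA12 windows printed above. At 24 h, where ABCA12 and ABCB10 fell, their windows had ratios of 0.222 and 0.941. The median there was 0.786 for 8 windows of members that rose and 0.863 for 11 windows of those that did not pass.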

How the data were processed

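RNA of 18 A549 libraries was sequenced in paired ends by the authors (NEBNext Ultra library kit, Illumina NovaSeq). Per the study's methods, reads were aligned with STAR 2.7.9a to GRCh38 with Ensembl 105 and counted per gene with featureCounts. The authors deposited 2 tables of raw counts, one per experiment, with 9 libraries each; strandedness and the handling of reads with several positions are not given in the sources used here. Symbols, lengths and GC content were taken from GENCODE v44, which left 172 listed genes unmatched.

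From these counts, genes with low counts were removed (filterByExpr, minimum count 10), libraries were scaled by TMM, and edgeR 4.0.16 (R 4.3.3) quasi-likelihood models with robust dispersion were fitted to the 9 libraries of each table, with groups as the only term. The Benjamini-Hochberg adjustment covered each table's tested genes. A gene passed at an adjusted p below 0.05; the stricter call asked for 0.0001 and 2-fold, as in the study's methods. TPM used the union of exons. Fits were tested on simulated data. Ratios of genes too low to be tested carry exact 95% intervals.

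The members, their roles and the lists of other genes were chosen with earlier results of these data known. Named with every library were ABCB1, ABCC1, ABCC2, ABCC3, ABCG2, ABCA1, ABCA3 and ABCG1, each member past the stricter call in at least 1 comparison, and, chosen after their values were seen, ABCB6 and ABCB5. Of other lists up to 2 genes that rose and 2 that fell most were named, and all further ABC proteins; 2 members and a few listed genes enter the counts but their values are not reported here.

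Replicate numbers are shared between groups in the labels, with no statement that they mark a pairing. Deviations of same-numbered libraries from their group means correlated at 0.499, 0.17 and 0.504 between Control_24H and SP_24H. Differently numbered libraries of these groups gave -0.546 to 0.175. Same-numbered libraries gave -0.592 to -0.0278 between Control_24H and SP_3H and -0.0101 to 0.162 between the groups of days and their control. Differently numbered libraries of Control_24H and SP_3H reached 0.576, so these values do not settle a pairing. The main fits hold no replicate term. With SP_24H and Control_24H alone and the replicate block, 16 members passed, 14 higher and 2 lower. Of all 17084 genes, 3441 were then higher and 3108 lower. Alternatives were DESeq2 1.42.0, other scalings, no filter, the replicate block, offsets for GC content and length, fits of the 2 groups compared alone and leaving out each library.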

Additional observations from a re-analysis of the deposited data

Results flagged for a closer look

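These results were singled out because a test of the difference itself passed, between the SP groups of an experiment or between the SP effects of the experiments. The SP groups were compared without untreated cells of 3 h or 12 days, so treatment length and time of collection cannot be told apart there. Within the experiment of hours, SP_24H against SP_3H gave log2 fold changes of 0.69 for ABCA1, 1.21 for ABCA2, 0.72 for ABCB6 and 1.48 for ABCC6, and of -0.57 for ABCB10 (edgeR, adjusted p from 0.0066 to 0.034). Leaving out 1 library reduced the 6 members past this test to as few as 2. That was so without replicate 2 of SP_24H, where 1161 of all 17701 genes were higher and 562 lower. In the main fit 2038 of all 17377 genes were higher and 1459 lower. Within the experiment of days, SP_12D against SP_3D gave 0.31 for ABCA1, 0.74 for ABCA12 and 0.30 for ABCC2, and -0.38 for ABCA3 (edgeR, adjusted p from 0.013 to 0.035). Members past this test numbered 0 without replicate 1 of SP_12D or replicate 2 of SP_3D. Of all genes, 302 of 18286 were then higher and 254 lower in the former fit, and 318 of 18260 and 310 in the latter. In the main fit 792 of all 17775 genes were higher and 648 lower.

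Between the experiments, the effect at 24 h minus that at 3 days was 0.97 for ABCB6, 0.70 for ABCC2, 1.59 for ABCC6 and 1.64 for ABCG1 (adjusted p from 0.0032 to 0.037), among 5 of 33 members, where 6.28% of all genes passed. The effect at 24 h minus that at 12 days was -0.72 for ABCB10, 1.10 for ABCB6, 0.41 for ABCC2, 2.08 for ABCC6 and 1.99 for ABCG1 (adjusted p from 0.0018 to 0.037), among 6 of 33 members, where 15.7% of all genes passed. With the replicate number as a block, ABCC6 in the first difference and ABCC2 in the second no longer passed (adjusted p = 0.054 and 0.051). ABCB6 and ABCC6 were higher at 24 h and lower at 12 days than their controls. The experiments were counted and normalised apart and have their own controls, so time and experiment cannot be told apart.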

How the results depend on the processing

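Of the recomputed counts of members, 189 stayed within 1.5 times the reported count and 39 did not; of the recomputed log2 fold changes of named members, 805 kept their direction and side of the threshold, 38 came to pass, 16 no longer passed and 1 changed sign. That one was ABCG2 at day 3, 0.12 (adjusted p = 0.036) in a fit of the 2 groups alone with GC content and length offsets and the replicate block, a setting chosen after seeing the data.

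Members past the strict call numbered 1 at 3 h, 5 at 24 h and 1 for SP_24H against SP_3H with DESeq2. With no filter they numbered 1 at 3 h, 3 at 24 h and 6 at day 12. Of all 36979 genes in hours, that setting called 309 higher and 99 lower at 3 h, and 966 and 165 at 24 h. Of all 39415 genes in days, it called 1758 higher and 519 lower at day 12. With GC content and length offsets 1 was called at 24 h, where 340 of all 17377 genes were called higher and 71 lower. In that setting 7 members passed at 3 h (5 higher, 2 lower), 15 at 24 h (11 higher, 4 lower) and 12 for SP_24H against SP_3H. Of all 17377 genes, 1917 were then higher and 1134 lower at 3 h, and 3369 and 2608 at 24 h. For SP_24H against SP_3H 2376 were higher and 2147 lower. With these offsets and the replicate block 10 passed at 3 h and 14 for SP_24H against SP_3H, and 3 were called at 24 h and 3 at day 3. Of all 17377 genes, 2065 were then higher and 1336 lower at 3 h, and 2672 and 2538 for SP_24H against SP_3H. Calls over all genes were 266 higher and 55 lower at 24 h, and 879 and 331 of 17775 at day 3. In fits of the 2 groups alone, 2 passed for SP_12D against SP_3D, where 531 of all 17140 genes were higher and 402 lower. With the replicate block added, 0 members passed at 3 h, where 0 of all 16151 genes were higher and 0 lower. For SP_12D against SP_3D 1 then passed (462 of all 17140 genes higher, 358 lower). With the offsets also added, 2 passed at 3 h (673 of all 16151 genes higher, 373 lower). In that setting 15 passed for SP_24H against SP_3H (3072 of 17110 genes higher, 2925 lower) and 0 for SP_12D against SP_3D (363 of 17140 higher, 248 lower). It called 4 at 24 h (620 of 17084 genes higher, 194 lower) and 1 at day 12 (371 of 17512 higher, 140 lower).

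Leaving out 1 library gave 3 to 4 members past at 3 h, 9 to 15 at 24 h, 17 to 22 at day 3 and 17 to 23 at day 12. It gave 2 to 9 for SP_24H against SP_3H and 0 to 18 for SP_12D against SP_3D. Strict calls numbered 0 to 1, 3 to 6 and 2 to 5 at 24 h, day 3 and day 12. Over all genes, 621 to 1509 were higher and 320 to 700 lower at 3 h, and 1872 to 3525 and 924 to 3093 at 24 h. They were 3906 to 5171 and 3358 to 5242 at day 3, and 4096 to 4934 and 3509 to 4990 at day 12. For SP_24H against SP_3H they were 1161 to 2404 and 562 to 2002, and for SP_12D against SP_3D 302 to 2456 and 254 to 2617. All-gene strict calls were 1 to 81 higher and 0 to 7 lower, 841 to 1576 and 245 to 507, and 901 to 1344 and 279 to 662. With the replicate block in the fit of 3 groups, 5 passed at 3 h (ABCG1 gained), 13 at 24 h (ABCB1 gained, ABCC10 lost), 19 at day 3 and 21 at day 12 (ABCG2 gained). For SP_24H against SP_3H and SP_12D against SP_3D 8 and 5 passed, and no other call against a control changed. Of all 17377 genes in hours, 1208 were then higher and 709 lower at 3 h, 2881 and 2163 at 24 h, and 2001 and 1513 for SP_24H against SP_3H. Of all 17775 genes in days, 4559 were higher and 4255 lower at day 3, 4765 and 4297 at day 12, and 951 and 823 for SP_12D against SP_3D. The causes of these differences were not tested. Too few reads were present to test 9 members in either experiment, and the spread between the libraries of hours limits what could pass there.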
